A study of Mus musculus with 27 samples.

Results

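The 9 receptors described here, by which macrophages bind microbes, lipids and dying cells, were followed through a first and a second exposure to Toll-like receptor (TLR) ligands. They were the scavenger receptors Marco, Msr1 and Cd36, the mannose receptor Mrc1, the LPS co-receptor Cd14 and the C-type lectins Clec4d, Clec4e, Clec4n and Clec7a, and a probe belonged to the set if the array files give it one of these 9 gene names. Of the 32138 genes named on the array, all 9 were found, with 10 probes among 52975 that carry a gene name. Msr1 has 2 probes, and the other receptors have 1 each.

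The cells were bone marrow-derived macrophages (BMDMs), grown for 7 days in medium conditioned by L929 cells, a fibroblast line that secretes the growth factor M-CSF, from female C57BL/6 mice aged 6 to 8 weeks. The 9 groups were naïve cells without ligand, and for each of 4 ligands an acute group, stimulated for 4 h, and a re-stimulated group, which had the ligand for 24 h, was washed, rested for 1 h and then had the same ligand for 4 h again. The ligands were LPS (TLR4) at 100 ng/ml, the bacterial-type DNA CpG (TLR9) at 100 µM in the labels but 1 µM in the study's methods, the lipopeptide Pam3CSK4 (TLR2 with TLR1) at 100 ng/ml, and the double-stranded RNA mimic Poly(I:C) (TLR3) at 10 µg/ml. Each group was hybridised to 3 one-colour arrays. The cultures are described in one place as coming from different mice and in another as separate pools of marrow, so the error below is the spread between cultures. All are from 1 strain and sex.

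Scavenger receptors share an affinity for negatively charged ligands such as oxidised lipoproteins and bacterial surface polymers, and they feed what they bind into endocytosis and phagocytosis. The C-type lectins of this set recognise carbohydrates and glycolipids. Clec7a (dectin-1) binds fungal beta-glucan, Clec4n (dectin-2) binds mannans, and Clec4e (Mincle) and Clec4d (MCL) bind mycobacterial glycolipids; Clec7a carries its own signalling motif, while the Clec4 lectins signal through the Fc receptor gamma chain (Fcer1g), and both routes lead through Syk to Card9, Bcl10 and Malt1 and on to NF-κB. Cd14 hands LPS to the complex of Tlr4 and Ly96. Mrc1 and Cd36 are widely used as markers of alternatively activated macrophages, and the nuclear receptor Pparg promotes transcription of Cd36.

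RefSeq (GRCm38.p6) gave a start site for 6 of the 9 genes. The 250 bases before the start are shown for Marco and Mrc1, which moved over the widest ranges among the scavenger and mannose receptors, and for the neighbours Clec4d and Clec4e, whose levels moved over very unequal ranges. Capitals mark matches, on either strand, to GAGGAAG, a short motif of PU.1 (encoded by Spi1), the lineage factor of macrophages.
Marco, chr1:120505025-120505274, minus strand: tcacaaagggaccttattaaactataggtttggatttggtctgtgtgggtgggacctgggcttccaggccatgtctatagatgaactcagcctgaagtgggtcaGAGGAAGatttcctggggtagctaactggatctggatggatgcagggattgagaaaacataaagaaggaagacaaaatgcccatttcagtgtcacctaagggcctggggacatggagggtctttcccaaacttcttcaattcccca
Mrc1, chr2:14229164-14229413, plus strand: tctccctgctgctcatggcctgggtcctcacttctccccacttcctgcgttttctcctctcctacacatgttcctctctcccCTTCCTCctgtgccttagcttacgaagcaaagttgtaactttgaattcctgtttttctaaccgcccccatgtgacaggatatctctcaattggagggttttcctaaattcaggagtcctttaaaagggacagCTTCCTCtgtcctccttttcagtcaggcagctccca
Clec4d, chr6:123261857-123262106, plus strand: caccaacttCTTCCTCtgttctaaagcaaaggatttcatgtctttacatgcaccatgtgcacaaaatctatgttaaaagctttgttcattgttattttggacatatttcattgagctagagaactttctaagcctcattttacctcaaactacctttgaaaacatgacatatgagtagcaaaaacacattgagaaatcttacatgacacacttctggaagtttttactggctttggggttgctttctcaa
Clec4e, chr6:123289872-123290121, minus strand: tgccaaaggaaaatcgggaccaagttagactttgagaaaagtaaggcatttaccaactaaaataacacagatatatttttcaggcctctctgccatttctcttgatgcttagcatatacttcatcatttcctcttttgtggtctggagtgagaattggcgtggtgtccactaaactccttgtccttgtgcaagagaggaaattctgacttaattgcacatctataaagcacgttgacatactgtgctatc
The Marco window held the PU.1 letters at 146 to 140 bases before the start, the Mrc1 window at 168 to 162 and at 36 to 30, and the Clec4d window at 241 to 235. The Clec4e window held none, and neither did those of Cd36 and Clec7a, which are not shown. Among 32851 promoters of this length, 10.6% held these letters. An AP-1 motif (TGANTCA, in 6.75% of promoters) was in none of the 4 windows shown. Motifs of NF-κB and of the interferon response, also planned, are not reported here.

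In the mm9 positions given with the array, the 9 genes lie on 6 chromosomes. The Marco probe is on chromosome 1 (122371115 to 122371134 for the part placed), the Mrc1 probe on chromosome 2 (14253273 to 14253332), the Cd36 probe on chromosome 5 (17288600 to 17288659) and the Cd14 probe on chromosome 18 (36884969 to 36885028). Both Msr1 probes are on chromosome 8 (40689158 to 40689217 and 40709296 to 40709355). The 4 lectins share chromosome 6. The probes of Clec4n (123196969 to 123197028), Clec4d (123224788 to 123224847) and Clec4e (123232878 to 123232937) span 36 kb, and Clec7a (129411739 to 129411798) lies apart from them. Exons or introns under the probes were not assigned, since no mm9 annotation was used here.

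All values below are the authors' log2 intensities, so a difference of 1 is a doubling, and 25 of the 27 arrays have them. The arrays without values were the third culture of re-stimulated LPS and the second culture of acute Pam3CSK4. Every probe of the 9 receptors was well above background on all 25 arrays and none was saturated. The macrophage markers Csf1r, Emr1 (F4/80), Cd68, Itgam, Lyz2, Fcgr1 and Mertk were likewise above background on 25 of 25 arrays, while of the T and B cell markers read, Cd3d, Cd3g, Cd8a and Ms4a1 were above it on at most 2 arrays and Cd3e, Cd4, Cd79a and Cd79b on all 25, at means of 9.64, 11.2, 6.06 and 8.13. Siglech, a marker of plasmacytoid dendritic cells, was above background on all 25, with a mean of 15.83. Of the other dendritic cell genes read, Zbtb46 was above it on 24 arrays, Flt3 on 10 and Xcr1 on 0, at means of 6.56, 4.39 and 2.39. All groups but acute LPS shared 3 slides, one for each replicate number, while the acute LPS arrays lay on 3 slides of their own. By the file headers these were also scanned on other days and read with another version of the array design. For this group slide, scan day, design version and stimulus cannot be told apart. The replicate 3 arrays stood apart in several of the receptors, and naïve replicate 3 also had 74.9% of its probes well above background against 43.1% to 55% on the other arrays used.

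A change was called when limma gave an adjusted p under 0.05, over all probes tested, and the groups differed by at least 1.5-fold. Of 108 receptor changes tested (9 receptors in 12 comparisons), 25 were called. After acute LPS, Msr1, Cd14 and Clec4e rose and Clec7a fell, 4 of 9 receptors beside 26.5% of all probes tested. After acute CpG, Msr1, Cd14 and Clec4e rose, 3 of 9 beside 5.72%. After acute Poly(I:C) limma called 0 of 9 beside 6.03%, with 3 receptors at an unadjusted p under 0.05, and after acute Pam3CSK4 it called 0 of 9 beside 0% of 27843 probes, again with 3 receptors (and 3458 probes) at an unadjusted p under 0.05. The median change of the 9 receptors was 0.49 with Pam3CSK4, 0.44 with CpG, 0.27 with Poly(I:C) and −0.06 with LPS, and medians over all probes tested were 0.01, −0.07, −0.1 and −0.01. These 4 comparisons and the 4 of re-stimulated with naïve cells share the same 3 naïve arrays and are not independent.

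From the acute to the re-stimulated state, Mrc1 fell for LPS, CpG and Poly(I:C). With LPS, Clec4d, Clec4e and Clec4n also rose, which makes 4 of 9 receptors beside 34.2% of all probes. With CpG it was 1 of 9 beside 3.56%, and with Poly(I:C) 1 of 9 beside 4.93%. With Pam3CSK4 limma called 0 of 9 beside 0% of 25430 probes, with 3 receptors and 3461 probes at an unadjusted p under 0.05. Against naïve cells, 3 of 9 were called after re-stimulation with LPS (2 higher, 1 lower, beside 5.66% of probes), 4 with CpG (3 higher, 1 lower, beside 13.1%), 2 with Pam3CSK4 (1 higher, 1 lower, beside 5.36%) and 3 with Poly(I:C) (2 higher, 1 lower, beside 9.03%). In all 4 of these, Mrc1 was lower and Cd14 higher. The medians of the 9 receptors were 1.3, 0.89, 0.64 and 0.16 for LPS, CpG, Pam3CSK4 and Poly(I:C), and those of all probes between −0.04 and 0.03.

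**Figure D1:**
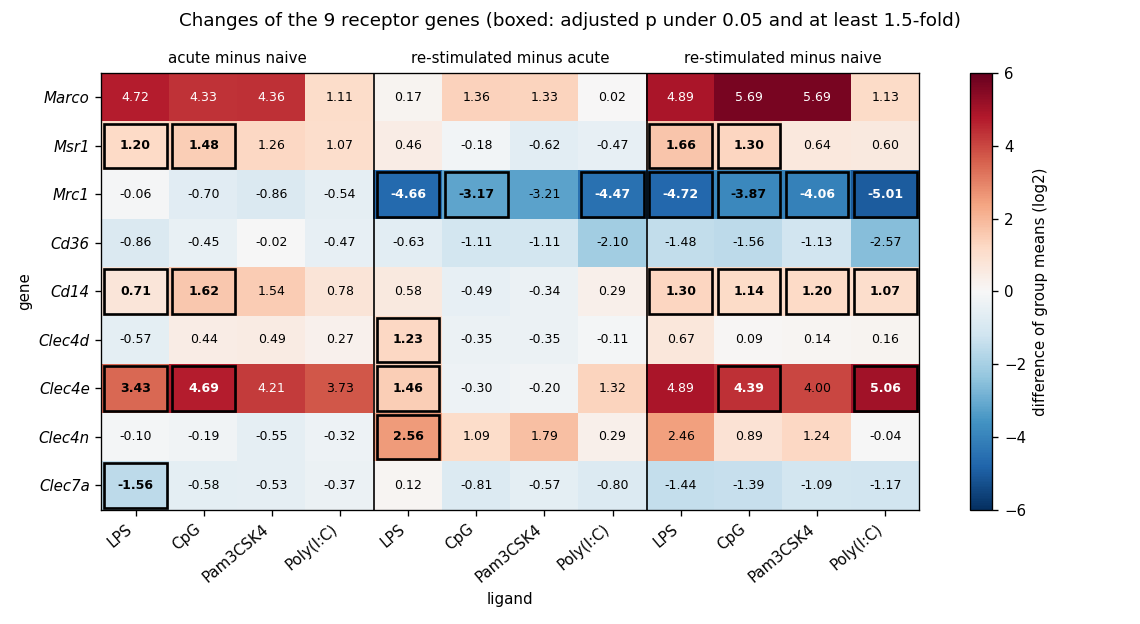
Log2 difference of group means for the 9 receptors (rows) in 12 comparisons (columns), second group minus first, with boxes around the 25 differences called by limma. Mrc1 is lower in every comparison that ends in re-stimulated cells, with differences from −3.17 to −5.01, while the large differences of Marco, up to 5.69, carry no box.

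Marco, a class A scavenger receptor that binds bacteria and inhaled particles, had the widest range of the set, 8.83 log2 units over the 25 arrays. In naïve cells it read 9.99, 11.42 and 17.97 in replicates 1, 2 and 3. After acute LPS it read 17.68, 17.98 and 17.88, and after acute CpG 16.8, 17 and 18.56. The naïve cultures thus differed widely. Replicates 1 and 2 lay below every stimulated culture, and replicate 3 lay within the range of the LPS cultures.

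Acute Pam3CSK4 gave 16.66 and 18.31 (replicates 1 and 3), and acute Poly(I:C) 11.56, 13.01 and 18.15. After re-stimulation the values were 18.61 and 17.42 for LPS (replicates 1 and 2) and 12.18, 12.22 and 18.39 for Poly(I:C). In all 6 cultures re-stimulated with CpG or Pam3CSK4 Marco read 18.82, the highest value that the quantile scale holds, because its probe was the brightest of the whole array there, against rank 9099, 5753 and 34 in the naïve cultures. Without quantile normalization, as log2 signal over the 75th percentile of the array, these 6 cultures read 10.29 to 11.06 and the naïve cultures 1.74, 3.07 and 9.31.

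None of the 12 changes of Marco was called. Acute LPS against naïve gave 4.72 (SE 1.95, adjusted p = 0.122) and re-stimulated CpG and Pam3CSK4 each 5.69 (SE 1.99, adjusted p = 0.113 and 0.147). Differences that end in these 2 groups are capped, and their spread of 0 is set by the cap. Within a replicate number, naïve to acute CpG was 6.82, 5.57 and 0.59, naïve to acute LPS 7.69, 6.56 and −0.09, and naïve to acute Poly(I:C) 1.57, 1.59 and 0.18. In replicates 1 and 2 Marco was thus far higher after LPS, CpG and Pam3CSK4 and only a little higher after Poly(I:C), whereas in replicate 3 it was high without any ligand.

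The calls depended on the fit and on 1 array. Without naïve replicate 3, Marco rose after acute LPS by 7.14 (adjusted p = 0.000191), CpG by 6.75 (0.00779) and Pam3CSK4 by 6.78 (0.037), and in re-stimulated LPS, CpG and Pam3CSK4 cells by 7.31 (0.00308), 8.11 (0.00058) and 8.11 (0.00181), the last pair again capped. With that array kept, 1 fit of all 9 groups called acute LPS (adjusted p = 0.0463) and re-stimulated CpG and Pam3CSK4 (0.0291 and 0.0339), adding the slide to it as a random effect called these and acute CpG (0.0348) and re-stimulated LPS (0.0166), and median scaling, under which limma gave Marco the same SE as the other receptors in a comparison (0.63 for acute LPS), called every change from naïve but acute Poly(I:C). With the replicate number as a block, which gives the unpaired naïve replicate 3 no weight there, re-stimulated LPS against naïve was called (7.31, adjusted p = 0.0174). The step from acute to re-stimulated CpG was 1.36 (SE 0.46, adjusted p = 0.153), and 1.92 without CpG acute replicate 3 (adjusted p = 0.0103).

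**Figure D2:**
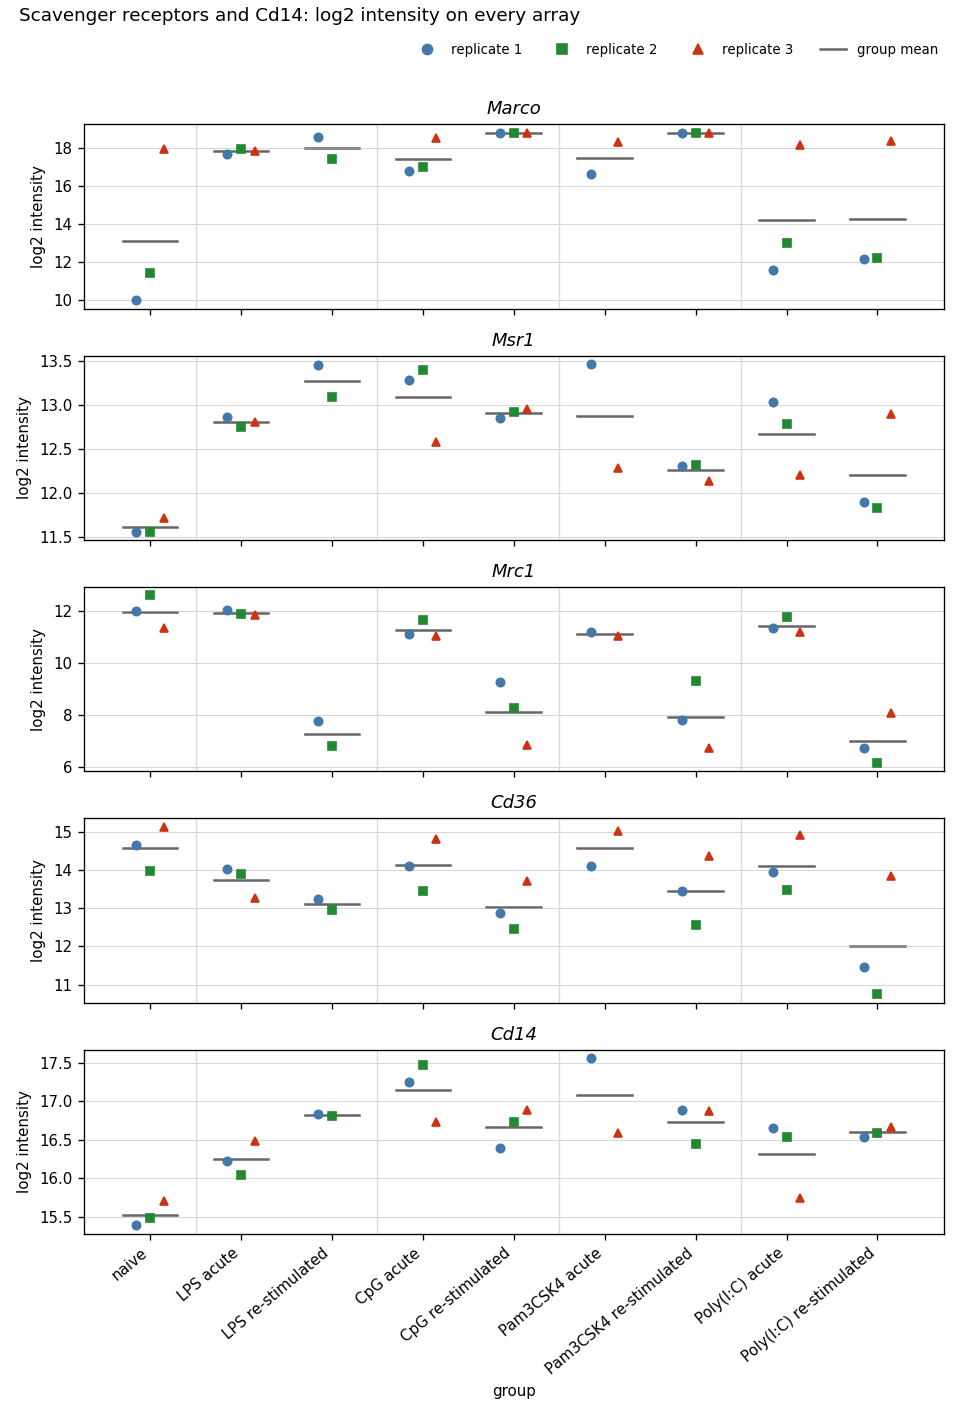
Log2 intensity of Marco, Msr1, Mrc1, Cd36 and Cd14 on each of the 25 arrays, by group, with the replicate number marked and the group mean as a line. Naïve replicate 3 sits at 17.97 for Marco, far above the other naïve cultures, and Mrc1 sits between 6.14 and 9.3 in every re-stimulated culture.

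In naïve cells the Marco value of replicate 3 exceeded the mean of the other 2 by 7.26, and 0.0364% of 27498 probes had a larger difference of that kind. The same held for Poly(I:C), with 5.86 in acute (0.104% of probes) and 6.19 in re-stimulated cells (0.0594%). Markers of neutrophils moved the other way in these groups, lower in replicate 3. The summed level of 5 neutrophil genes (Ly6g, Mpo, Ngp, Camp and Elane) was 13.28, 13.67 and 11.91 in the naïve cultures and 11.57 to 12.08 on the other replicate 3 arrays of the shared slides, and in acute LPS, where Marco was high in all 3 cultures, it was 11.53 to 12.16. Ly6g was above background on 16 of 25 arrays, Mpo on 16 and Ngp on 17, and Camp and Elane on all 25. Elane ranged only from 11.08 to 12.73 and read 12.29, 12.23 and 11.83 in the naïve cultures. The low sum of naïve replicate 3 is thus mostly Elane. A sum of 3 mast cell and basophil genes was low on the same arrays as the neutrophil sum. It was 4.48 to 5.21 on the replicate 3 arrays, 4.56 to 5.12 in acute LPS and 6.46 to 9.86 on the rest. Marco was also high, at 16.66 to 18.61, in the replicate 1 and 2 cultures of acute CpG, acute Pam3CSK4 and re-stimulated LPS, where the neutrophil sum was 13.27 to 14.76. The summed macrophage markers stayed between 18.8 and 19.55. In such bulk RNA, fewer cells of a type and less RNA per cell cannot be told apart, and the part of these cells in the Marco values was not tested.

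**Figure D3:**
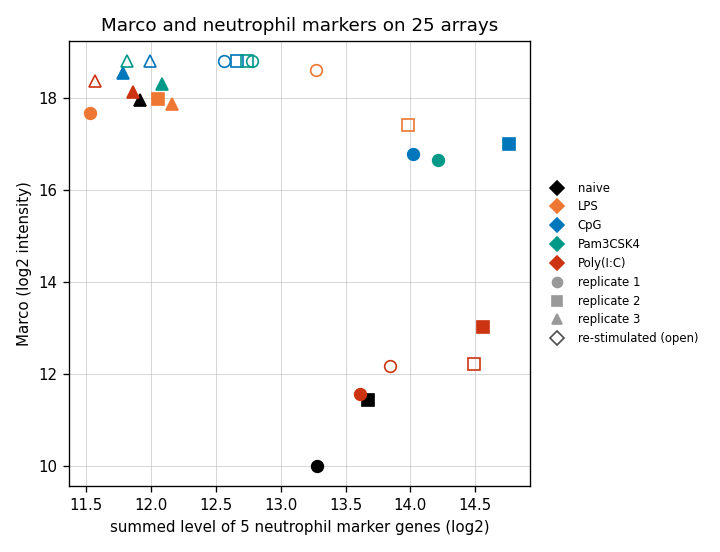
Marco log2 intensity (vertical) against the summed log2 level of 5 neutrophil genes (horizontal) on each of the 25 arrays, coloured by group. The replicate 3 arrays and the acute LPS arrays lie at neutrophil levels up to 12.16, all with Marco above 17, while naïve replicates 1 and 2 lie above 13 with Marco at 9.99 and 11.42.

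Msr1, the scavenger receptor A of modified lipoproteins, varied far less between cultures. Naïve cells read 11.56, 11.56 and 11.71, acute LPS 12.87, 12.75 and 12.81, and acute CpG 13.29, 13.4 and 12.58. Neither stimulated group overlapped the naïve one. Msr1 rose by 1.2 after acute LPS (SE 0.17, adjusted p = 0.00477) and by 1.48 after acute CpG (SE 0.26, adjusted p = 0.0337).

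Acute Pam3CSK4 (13.47 and 12.28) and acute Poly(I:C) (13.04, 12.79 and 12.2) also lay above all naïve cultures, though with adjusted p = 0.339 and 0.068 they were not called. Re-stimulated cells read 13.46 and 13.09 for LPS, 12.86, 12.92 and 12.96 for CpG, 12.31, 12.32 and 12.14 for Pam3CSK4, and 11.9, 11.83 and 12.9 for Poly(I:C). Against naïve cells the rise held its call for LPS (1.66, SE 0.2, adjusted p = 0.0264) and CpG (1.3, SE 0.15, adjusted p = 0.00916), whereas Poly(I:C) (0.6, adjusted p = 0.282) and Pam3CSK4 (0.64, adjusted p = 0.0791) gave none. Msr1 after acute LPS and after CpG re-stimulation kept its call whichever array was left out, though the first of these was not called when arrays were scaled by their medians instead of quantiles (1.51, adjusted p = 0.105). After acute CpG it was lost without naïve replicate 1 or 2 or CpG acute replicate 1 or 2 (adjusted p from 0.11 to 0.132) and under the replicate block (0.0728), and after LPS re-stimulation it was lost without any of the 4 arrays other than naïve replicate 3 (0.0979 to 0.212).

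The second Msr1 probe gave other answers in several comparisons. After acute CpG it was higher than in naïve cells by 0.9 without a call (adjusted p = 0.106). It read 10.76 ± 0.09 (SD, n = 3) in naïve cells, 11.44 ± 0.23 (n = 3) after acute LPS and 12.75 ± 0.04 (n = 2) after LPS re-stimulation, so that the step from acute to re-stimulated was 1.31 (adjusted p = 0.00667), against 0.46 (adjusted p = 0.131) for the first probe. After Poly(I:C) re-stimulation it was higher than in naïve cells by 0.93 (adjusted p = 0.0264). Whether the probes read different transcripts was not tested.

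Mrc1, which takes up mannosylated glycoproteins, separated the re-stimulated from the acute state. Naïve cells read 12, 12.62 and 11.35, acute LPS 12.05, 11.89 and 11.85, and re-stimulated LPS 7.77 and 6.78. The acute cultures lay among the naïve ones and far above the re-stimulated ones. The fall from acute to re-stimulated LPS was 4.66 log2 units, or 25.3-fold (SE 0.32, adjusted p = 0.000524), and the call was kept whichever of the 5 arrays was left out. It was not called when the LPS array without deposited values was added (−6.02, adjusted p = 0.0593).

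Acute CpG read 11.13, 11.68 and 11.06 and re-stimulated CpG 9.28, 8.25 and 6.85. Acute Poly(I:C) read 11.35, 11.8 and 11.21 and re-stimulated Poly(I:C) 6.73, 6.14 and 8.07. For both ligands every re-stimulated culture lay below every acute one. Mrc1 fell 8.97-fold with CpG (log2 difference −3.17, SE 0.59, adjusted p = 0.0446) and 22.2-fold with Poly(I:C) (−4.47, SE 0.5, adjusted p = 0.0201).

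Pam3CSK4 showed the same separation, with 11.22 and 11.05 in acute and 7.78, 9.3 and 6.7 in re-stimulated cells. The difference of −3.21 (SE 0.73) had an unadjusted p of 0.00522 and an adjusted p of 0.211, in the comparison where limma called no probe at all. Against naïve cells, Mrc1 fell after all 4 re-stimulations. It fell by 5.01 with Poly(I:C) (SE 0.57, adjusted p = 0.0102), by 4.72 with LPS (SE 0.5, adjusted p = 0.021), by 4.06 with Pam3CSK4 (SE 0.7, adjusted p = 0.0362) and by 3.87 with CpG (SE 0.66, adjusted p = 0.0205). None of the 4 acute groups differed from naïve by more than 0.86, and none of these differences was called.

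The Mrc1 differences kept their direction whichever array was left out, but sizes and calls moved. Leaving out 1 array moved the CpG step between −3.74 and −2.53, and it stayed called only without CpG acute replicate 3 (adjusted p = 0.0469, otherwise up to 0.136). The Poly(I:C) step lay between −5.02 and −4.05 and was not called without replicate 1 or 2 of either group (0.0732 to 0.0867). In those fits limma called no probe at all. Against naïve cells the call was lost for Pam3CSK4 without any array but naïve replicate 3 (0.0549 to 0.141) and under the replicate block (0.0546), for LPS without any array but naïve replicate 3 (0.0564 to 0.212), for CpG without naïve replicate 1 or 2 or CpG re-stimulated replicate 2 (0.0644 to 0.0762), and for Poly(I:C) without re-stimulated replicate 1 (0.0565).

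Cd36, a class B receptor for oxidised lipoproteins and long-chain fatty acids, was not called in any comparison. Naïve cells read 14.64, 13.98 and 15.13. Re-stimulated LPS (13.23 and 12.96), CpG (12.88, 12.46 and 13.72) and Poly(I:C) (11.46, 10.75 and 13.83) lay below all naïve cultures, while re-stimulated Pam3CSK4 (13.44, 12.55 and 14.37) overlapped them. The differences from naïve cells were −1.48, −1.56, −2.57 and −1.13 in that order, with adjusted p = 0.09, 0.0629, 0.109 and 0.242.

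Replicate 3 had the highest Cd36 value in every group of the shared slides that has one, by 0.82 to 2.72 over the mean of the others. With the replicate number as a block, CpG against naïve was called (−1.56, adjusted p = 0.0257), as were LPS against naïve (−1.21, adjusted p = 0.0373) and acute against re-stimulated CpG (−1.11, adjusted p = 0.0397). Without Poly(I:C) re-stimulated replicate 3, Cd36 was lower after Poly(I:C) re-stimulation than in naïve cells (−3.48, adjusted p = 0.0168) and than in acute cells (−3, adjusted p = 0.0234). Without naïve replicate 3, LPS re-stimulated against naïve was −1.21 (adjusted p = 0.0354), and without LPS acute replicate 3 the step from acute to re-stimulated LPS was −0.85 (0.0211). Other alternatives gave smaller differences. Over all of them re-stimulated against naïve lay between −1.78 and −0.64 for LPS and between −1.91 and −0.28 for CpG. For Pam3CSK4 it lay between −1.59 and −0.31, and for Poly(I:C) between −3.48 and −1.57.

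Cd14 had a higher mean in each of the 8 stimulated groups than in naïve cells. Naïve cells read 15.39, 15.49 and 15.71, acute LPS 16.22, 16.04 and 16.48, and acute CpG 17.25, 17.47 and 16.73. None of these cultures overlapped the naïve ones. Cd14 rose by 0.71 after acute LPS (SE 0.2, adjusted p = 0.0456) and by 1.62 after acute CpG (SE 0.25, adjusted p = 0.0257).

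Acute Pam3CSK4 read 17.56 and 16.59 (difference 1.54, adjusted p = 0.288), and acute Poly(I:C) 16.65, 16.53 and 15.75 (0.78, adjusted p = 0.181, and 1.06 with adjusted p = 0.0368 without Poly(I:C) acute replicate 3). In the 4 re-stimulated groups the cultures lay close together, between 16.39 and 16.88. They exceeded naïve cells by 1.3 with LPS (SE 0.19, adjusted p = 0.0351), by 1.2 with Pam3CSK4 (SE 0.21, adjusted p = 0.0368), by 1.14 with CpG (SE 0.2, adjusted p = 0.0225) and by 1.07 with Poly(I:C) (SE 0.17, adjusted p = 0.0214). From acute to re-stimulated LPS the difference was 0.58 (adjusted p = 0.0808), and 0.7 without LPS acute replicate 3 (0.0285).

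These Cd14 calls also rested on the number of arrays. The acute LPS call was lost without any array but naïve replicate 3 (adjusted p from 0.0842 to 0.127) under the replicate block (0.0737) and with median scaling (0.239), and the acute CpG call without replicate 1 or 2 of either group (0.0949 to 0.112) and under the block (0.0654). After re-stimulation the call was lost for LPS and for Pam3CSK4 without any array but naïve replicate 3 (0.112 to 0.258 and 0.0728 to 0.141), and for Pam3CSK4 under the block (0.0706). For CpG it was lost without naïve replicate 1 or 2 or re-stimulated replicate 2 or 3 (0.0686 to 0.0867), and for Poly(I:C) without replicate 1 or 2 of either group (0.0792 to 0.0896). Over the fits that leave out 1 array the difference itself stayed between 0.6 and 1.83.

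Clec4e (Mincle) had the largest called rises of the set. Naïve cells read 11.02, 11.65 and 14.39, acute LPS 15.64, 15.53 and 16.18, and acute CpG 17.23, 17.27 and 16.64. Even the high naïve culture, again replicate 3, lay below all of these. Clec4e rose 10.8-fold after acute LPS (log2 difference 3.43, SE 0.85, adjusted p = 0.0296) and 25.8-fold after acute CpG (4.69, SE 0.87, adjusted p = 0.0373).

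Acute Pam3CSK4 read 17.16 and 15.97 and acute Poly(I:C) 16.55, 16.75 and 14.97. Both lay above the naïve cultures without a call (4.21, adjusted p = 0.292, and 3.73, adjusted p = 0.0866). Without naïve replicate 3 both were called, at 5.22 (adjusted p = 0.0351) and 4.75 (0.0139).

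Re-stimulated cells read 17.18 and 17.31 for LPS, 16.31, 16.56 and 17.37 for CpG, 16.17, 15.42 and 17.48 for Pam3CSK4, and 17.71, 17.7 and 16.83 for Poly(I:C). Clec4e was therefore high after a second stimulation with every ligand. Against naïve cells it rose 21-fold with CpG (4.39, SE 0.88, adjusted p = 0.0296) and 33.3-fold with Poly(I:C) (5.06, SE 0.89, adjusted p = 0.0263), and the differences for LPS (4.89, adjusted p = 0.0662) and Pam3CSK4 (4, adjusted p = 0.0712) were called without naïve replicate 3 (5.91 with adjusted p = 0.00121, and 5.02 with 0.00884). From acute to re-stimulated LPS it rose by a further 1.46 (SE 0.26, adjusted p = 0.00815), and for Poly(I:C) the step was 1.32 (adjusted p = 0.176).

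The calls against naïve cells were lost without any array but naïve replicate 3 for acute LPS (adjusted p from 0.0666 to 0.0927), acute CpG (0.0807 to 0.139) and re-stimulated CpG (0.0751 to 0.0968), and without replicate 1 or 2 of either group for re-stimulated Poly(I:C) (0.0733 to 0.103), while the difference stayed at 2.76 or more. The replicate block took away the acute CpG call (0.0796) and that of re-stimulated Poly(I:C) (0.0689), and it called re-stimulated LPS (5.91, adjusted p = 0.00996). The step from acute to re-stimulated LPS was lost without LPS re-stimulated replicate 2 (adjusted p = 0.055).

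**Figure D4:**
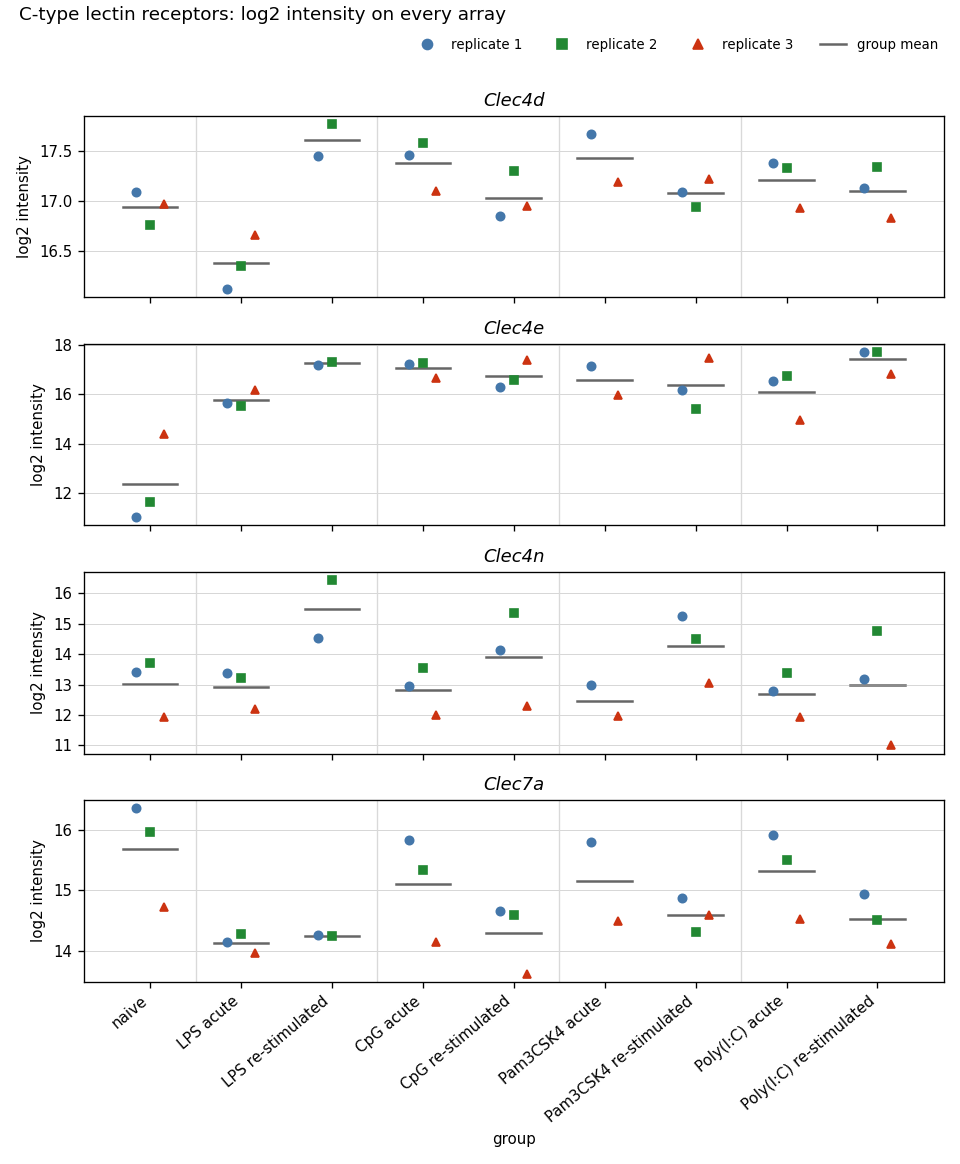
Log2 intensity of Clec4d, Clec4e, Clec4n and Clec7a on each of the 25 arrays, by group, with the replicate number marked and the group mean as a line. Clec4e lies between 11.02 and 14.39 in naïve cells and from 14.97 up in every stimulated culture, while Clec4d stays between 16.12 and 17.77 throughout.

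Clec4d (MCL), encoded next to Clec4e and known to pair with its product, had the narrowest range of the set, 1.65 log2 units over 25 arrays, against 6.69 for Clec4e. Naïve cells read 17.09, 16.76 and 16.97. Acute LPS read 16.12, 16.35 and 16.66 and re-stimulated LPS 17.45 and 17.77. Both LPS groups stood clear of the naïve cultures, the acute one below and the re-stimulated one above.

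From acute to re-stimulated LPS Clec4d rose by 1.23 (SE 0.24, adjusted p = 0.0119), a call lost without LPS re-stimulated replicate 2 (0.0786) and with the LPS array without deposited values added (1, adjusted p = 0.138). Against naïve cells neither LPS group was called (−0.57, adjusted p = 0.1, and 0.67, adjusted p = 0.137). In the other 6 groups the differences from naïve lay between 0.09 and 0.49, without a call.

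Clec4n (dectin-2) read 13.41, 13.72 and 11.94 in naïve cells and 13.37, 13.21 and 12.21 after acute LPS, and 14.53 and 16.43 after LPS re-stimulation. Only the last of these groups stood apart. Clec4n rose from acute to re-stimulated LPS by 2.56, or 5.88-fold (SE 0.61, adjusted p = 0.0225). This call was lost without LPS re-stimulated replicate 2 (1.6, adjusted p = 0.0893) and under the replicate block (0.0577), and with the LPS array without deposited values added the step was 1.15 (adjusted p = 0.605).

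Re-stimulated CpG read 14.13, 15.34 and 12.29 and re-stimulated Pam3CSK4 15.26, 14.49 and 13.06, against 12.94, 13.54 and 12.01 and 12.98 and 11.97 in the acute cells. The steps of 1.09 (adjusted p = 0.466) and 1.79 (adjusted p = 0.347) were not called, nor was the Poly(I:C) step of 0.29, from 12.79, 13.37 and 11.94 to 13.18, 14.77 and 11. In each of these groups replicate 3 was the lowest, by 1.14 to 2.97 below the mean of replicates 1 and 2 where there were 3 arrays.

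Clec7a (dectin-1) was highest in naïve cells, at 16.36, 15.97 and 14.72. Acute LPS read 14.14, 14.28 and 13.96, below all of them. Clec7a fell by 1.56 log2 units, or 2.95-fold, after acute LPS (SE 0.43, adjusted p = 0.0403). The call was lost without any array but naïve replicate 3 (adjusted p from 0.0921 to 0.113), under the replicate block (0.0503), with median scaling (−1.01, adjusted p = 0.383) and with processed signals over the 75th percentile (−1.15, adjusted p = 0.121). Without the filter on dim probes it was lost too (0.0704).

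The acute CpG cultures read 15.84, 15.33 and 14.15, those of Pam3CSK4 15.81 and 14.5, and those of Poly(I:C) 15.92, 15.5 and 14.52. They overlapped the naïve cultures, with differences between −0.58 and −0.37. Re-stimulated cells read 14.26 and 14.24 for LPS, 14.66, 14.6 and 13.62 for CpG, 14.87, 14.31 and 14.6 for Pam3CSK4, and 14.94, 14.51 and 14.11 for Poly(I:C), which was 1.44, 1.39, 1.09 and 1.17 below the naïve mean (adjusted p = 0.17, 0.121, 0.195 and 0.174). Without naïve replicate 3, the lowest naïve culture, Clec7a was lower in all 4 re-stimulated groups, by −1.92 (adjusted p = 0.00514), −1.87 (0.0152), −1.57 (0.0154) and −1.65 (0.0236), and with the replicate block it was called for LPS (−1.92, adjusted p = 0.0192) and CpG (−1.39, adjusted p = 0.0374). With median scaling the 4 differences were −0.65, −0.09, −0.24 and −0.23, where the median of all probes stood at 0.4 to 0.78.

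Whether the ligands differed from each other was asked with an F test in limma. Among acute CpG, Pam3CSK4 and Poly(I:C), which share slides, 0 of 9 receptors passed, beside 0.1% of 26902 probes, and none had an unadjusted p under 0.05. Among the 4 re-stimulated groups 0 of 9 passed, beside 6.04% of 26635 probes, with unadjusted p under 0.05 for Msr1 (0.012, adjusted p = 0.106) and Marco (0.0223, adjusted p = 0.146). Re-stimulated Poly(I:C) cells were lower in Marco than CpG cells and Pam3CSK4 cells, by 4.56 on the means for each (SE 1.36, adjusted p = 0.077 and 0.061), the widest gaps between ligands, and in replicates 1 and 2 no other re-stimulated culture came within 5 log2 units of them. Without Poly(I:C) re-stimulated replicate 3, the F test called Msr1 (adjusted p = 0.00288). For Marco, 2 of the 4 groups have a spread of 0 from the cap, so its F test carries little weight. Without Poly(I:C) acute replicate 3 the acute test called Marco (0.0477).

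Other genes of the same families and pathways were read from lists, under the deposited scaling only. Of 17 other scavenger receptors, 11 or 12 could be tested, and between 0 and 5 were called in a comparison. The step from acute to re-stimulated LPS had 5 of 12, beside 34.2% of all probes. Re-stimulated Poly(I:C) against naïve cells had 5 of 11 (2 up, 3 down), beside 9.03%. Olr1, the endothelial-type receptor for oxidised LDL, rose after acute LPS (4.55, SE 0.49, adjusted p = 0.00217), CpG (6.2, SE 0.47, adjusted p = 0.00527) and Poly(I:C) (5.13, SE 0.93, adjusted p = 0.0356) and after all 4 re-stimulations (4.79 to 6.48). In naïve cells its probe passed background on 1 of 3 arrays. Scarf1 was above background on no naïve and no re-stimulated LPS array and rose at least 14.6-fold after acute LPS. Lrp1, an endocytic receptor for many ligands, fell against naïve cells after re-stimulation with CpG (−1.49, SE 0.35, adjusted p = 0.0444), Pam3CSK4 (−1.28, SE 0.26, adjusted p = 0.0476) and Poly(I:C) (−2.23, SE 0.26, adjusted p = 0.0104).

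Of 30 other C-type lectin receptors, 17 to 19 could be tested and 0 to 7 were called, the most, 7 of 17, again in the LPS step beside 34.2% of all probes. Clec10a, a galactose-binding lectin that like Mrc1 marks alternative activation, fell against naïve cells after re-stimulation with CpG (−2.97, SE 0.42, adjusted p = 0.0135), Pam3CSK4 (−2.51, SE 0.45, adjusted p = 0.0384) and Poly(I:C) (−3.48, SE 0.47, adjusted p = 0.0153). Cd207 (langerin) was at least 13.9-fold lower after LPS and at least 9.46-fold lower after CpG re-stimulation, where it was above background on no array. Clec5a, a lectin that signals through Tyrobp, rose after acute LPS (3.07, SE 0.34, adjusted p = 0.00233) and CpG (3.42, SE 0.41, adjusted p = 0.0153), and its probe too passed background on 1 of 3 naïve arrays.

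Of the genes that carry C-type lectin signals, 15 of 16 were on the array and were tested. Calls numbered 2 up and 2 down after acute LPS (beside 26.5% of all probes), 2 up and 1 down after acute CpG (beside 5.72%), and 3 up and 1 down from acute to re-stimulated LPS (beside 34.2%), and at most 1 elsewhere. Malt1, the protease of the Card9 complex, rose after acute LPS (2.01, SE 0.21, adjusted p = 0.00198) and CpG (2.65, SE 0.37, adjusted p = 0.0217), and Inpp5d, a lipid phosphatase that restrains Syk signalling, fell by 1.81 and 1.59 (adjusted p = 0.0077 and 0.0237). Of the 8 partners and relatives of Cd14, Tlr2 rose after acute LPS (2.45, SE 0.42, adjusted p = 0.00913) and CpG (2.98, SE 0.57, adjusted p = 0.0401), Tlr6 after LPS, CpG and Poly(I:C) (1.27, 1.39 and 1.23), and Ly86, the partner of Cd180, fell against naïve cells by 2.04 after both CpG and Pam3CSK4 re-stimulation.

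Among 17 regulators and markers of alternative activation and lipid handling on the array, of which 15 or 16 could be tested, Pparg fell against naïve cells after all 4 re-stimulations: with LPS −4.16 (SE 0.18, adjusted p = 0.00796), with Pam3CSK4 −3.03 (SE 0.36, adjusted p = 0.0192), with CpG −2.26 (SE 0.27, adjusted p = 0.00932) and with Poly(I:C) −1.95 (SE 0.27, adjusted p = 0.0161). Fabp4, a fatty acid carrier and known Pparg target, fell after CpG, Pam3CSK4 and Poly(I:C) (by 2.22, 3.06 and 2.22). Arg1, a marker of alternative activation like Mrc1, moved the other way: it was above background on no acute LPS or acute CpG array and was at least 596-fold and at least 129-fold higher in the re-stimulated cells. Chi3l3, on the same list, also rose from acute to re-stimulated LPS (6.83, SE 0.28, adjusted p = 0.000177). In that step 4 genes of the list rose and 3 fell, beside 34.2% of all probes. Against naïve cells, 2 rose and 1 fell with LPS (beside 5.66%), and 2 rose and 4 fell with CpG (13.1%). With Pam3CSK4 1 rose and 2 fell (5.36%), and with Poly(I:C) 3 rose and 4 fell (9.03%).

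As a description over the 9 group means, the gene most like Marco among 29446 probes was Gpr18 (Pearson's r 0.989), and those most like Mrc1 were Mamdc2 (0.992) and Vkorc1 (0.991). Cd14 was most like Lztfl1 (0.991) and the NF-κB co-regulator Bcl3 (0.978), Clec4e most like 1810029B16Rik (0.992) and Rasgrp1 (0.98), and Cd36 most like Igf2r (0.98), the receptor that carries lysosomal enzymes. Msr1 was most like Gas7 (0.945) and Fam102b (0.941), Clec4d most like 4930554P06Rik (0.983) and Lilra6 (0.957), Clec4n most like Htr7 (0.98), and Clec7a most like Trim59 (0.989) and Syce2 (0.981). Among the receptors themselves the closest pairs were Cd36 with Mrc1 and Cd14 with Clec4e (r 0.86 each). The 9 points share slides, and the best of so many probes is high by selection.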

How the data were processed

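RNA of each culture was labelled with Cy3 and hybridised to a one-colour Agilent mouse array, read by Feature Extraction 10.7.3.1 per the file headers. The authors deposited spot intensities for each array, not normalized, and, for 25 arrays, log2 values that had gone through the RMA background step and quantile normalization, which pulls all arrays onto 1 distribution and so caps the brightest probe. These log2 values were used as deposited; spot intensities gave the background marks and the alternatives, and log2 values remade from them differed by a median of 0.0355 and at most 1.08. Groups and replicate numbers come from the sample labels.

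For each pair of groups limma 3.58.1 in R 4.3.3 was fitted to the probes that the scanner software marked as well above background on 2 or more arrays of one of the groups, with Benjamini-Hochberg adjustment over them. Every adjusted p is from limma. Ligands were compared by moderated F tests. The study's filter on Ensembl probes was not repeated. The number of arrays (2 or 3 a group) limits the precision, and p-values measure the spread between cultures.

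Replicate numbers coincide with slides, by the scanner headers, for all groups but acute LPS. As a check on pairing, departures from the group mean were correlated between arrays of equal number. Naïve and acute CpG gave 0.28 to 0.36, naïve and acute Poly(I:C) 0.36 to 0.42 and the CpG groups 0.29 to 0.48, whereas naïve and acute LPS gave 0.01 to 0.04. The fit with the number as a block was an alternative.

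The receptors and the gene lists were chosen with earlier results of these data known. A receptor was read by its probe with the highest mean. From each list, the called genes with the 3 largest changes in a comparison were open to naming, and for each receptor the 2 genes whose group means were most like it. "At least" folds set each array of a group with none above background at the higher of the probe's own value and the lowest value of a probe above background there. Figures were drawn with matplotlib 3.10.9, and the fitting steps were tested on simulated data.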

Additional observations from a re-analysis of the deposited data

Results flagged for a closer look

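For some receptors, every culture of 1 ligand group lay above the mean of its reference group (naïve, or acute cells of the same ligand) and every culture of another ligand group lay below the mean of its own, among 81 combinations of receptor, step and ligand pair compared. The difference was not tested in any of them, and the acute LPS arrays lay on slides of their own. Values are log2 differences of group means.

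Clec4d went by −0.57 from naïve to acute LPS and by 0.44 and 0.49 to acute CpG and Pam3CSK4, so the ligands differed by 1 and 1.05. From acute to re-stimulated cells Clec4d rose by 1.23 with LPS and moved by −0.35 with both CpG and Pam3CSK4, a gap of −1.58 for each. Msr1 moved by 0.46 with LPS, −0.18 with CpG and −0.62 with Pam3CSK4, with gaps to LPS of −0.64 and −1.08. Cd14 moved by 0.58 with LPS, −0.49 with CpG and −0.34 with Pam3CSK4, with gaps to LPS of −1.07 and −0.92, and by 0.29 with Poly(I:C), with gaps of 0.78 to CpG and 0.64 to Pam3CSK4. Clec7a moved by 0.12 with LPS, −0.81 with CpG, −0.57 with Pam3CSK4 and −0.8 with Poly(I:C), with gaps to LPS of −0.94, −0.69 and −0.92. Of these single steps, only that of Clec4d with LPS was called.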

How the results depend on the processing

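No called change reversed its direction in any alternative. Of the 25 calls, Msr1 after CpG re-stimulation against naïve cells held in every alternative, and 5 calls held in every one that left out no single array: this one, Clec4e after acute LPS, Mrc1 from acute to re-stimulated Poly(I:C), and Mrc1 against naïve cells after CpG and Poly(I:C) re-stimulation. The cause of the other shifts was not tested. With 2 or 3 arrays a group, a missing call says little, and all receptor probes were well above background.

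Counts below are receptors called of 9. Calls over all probes moved with the setting too, also when 1 array was left out. From naïve to re-stimulated CpG they ranged from 704 of 27944 (without CpG re-stimulated replicate 2) to 7030 of 26427 (without naïve replicate 3). With median scaling, which moved the median change of all probes to between 0.11 and 0.78, there were 2 for acute LPS against naïve, 2 for acute Pam3CSK4, 1 for acute Poly(I:C), 2 for CpG acute to re-stimulated, and 5 each for re-stimulated LPS and Pam3CSK4 against naïve. Over all probes, calls were 3348 of 29933, 227 of 27843 and 1438 of 28426 for these acute groups. They were 1509 of 25739 for the CpG step, 1374 of 27915 for re-stimulated LPS and 1535 of 27945 for re-stimulated Pam3CSK4. With the normexp background there were 2 for acute Poly(I:C), 5 for re-stimulated LPS and 4 for re-stimulated Pam3CSK4, and with processed signals over the 75th percentile 1, 5 and 4. Calls over all probes were 2526 of 28426, 3931 of 27915 and 2747 of 27945 with normexp. With processed signals they were 2196, 3515 and 2932 of the same totals. Without the filter on dim probes there were 2 for acute LPS, 0 for acute CpG, 0 for CpG acute to re-stimulated, and 1, 2 and 0 for re-stimulated LPS, CpG and Pam3CSK4 against naïve. Of 55681 probes, limma then called 5649 for acute LPS, 412 for acute CpG and 147 for the CpG step. For the re-stimulated groups it called 316, 1646 and 291.

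With the replicate number as a block there were 2 for acute LPS and 0 for acute CpG against naïve, 2 for CpG acute to re-stimulated, and 7 and 0 for re-stimulated LPS and Pam3CSK4 against naïve. Over all probes, calls were 5778 of 29933 for acute LPS, 586 of 27954 for acute CpG and 1177 of 25739 for the CpG step. They were 4757 of 27915 for re-stimulated LPS and 6 of 27945 for re-stimulated Pam3CSK4. The block ended 9 calls of receptors and made 9, each given with its receptor except Cd36 and Cd14 from acute to re-stimulated LPS. Same-numbered LPS arrays did not share a slide.

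In 1 fit of all 9 groups there were 3 for acute Pam3CSK4, 2 for acute Poly(I:C), 2, 1 and 2 for LPS, Pam3CSK4 and Poly(I:C) acute to re-stimulated, and 4 for re-stimulated Pam3CSK4. Over all probes, calls were 1665 of 27843 and 4157 of 28426 for these acute groups. They were 9243 of 28592, 852 of 25430 and 3676 of 27139 for the steps, and 4842 of 27945 for re-stimulated Pam3CSK4. With the slide as a random block in that fit there were 3 and 3 for acute Pam3CSK4 and Poly(I:C), 1 and 2 for their steps to re-stimulation, and 8, 7, 5 and 5 for re-stimulated LPS, CpG, Pam3CSK4 and Poly(I:C) against naïve. Calls over all probes were 2650 of 27843 and 5295 of 28426 for the acute groups, and 1862 of 25430 and 5105 of 27139 for the steps. For the re-stimulated groups they were 6315 of 27915, 7407 of 28176, 6604 of 27945 and 7238 of 28411. With all 27 arrays there was 1 for LPS acute to re-stimulated (beside 1799 of 29469 probes) and 0 for re-stimulated LPS against naïve (beside 116 of 28832).

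Leaving out all replicate 3 arrays, an alternative chosen after seeing the data, gave 3 for acute Poly(I:C), 2 and 4 for CpG and Poly(I:C) acute to re-stimulated, 7, 7, 7 and 5 for re-stimulated LPS, CpG, Pam3CSK4 and Poly(I:C) against naïve, and 4 in the F test of re-stimulated groups. It ended no call, and calls over all probes in that F test were not counted. Acute Pam3CSK4, left with 1 array, is not counted. Over all probes, calls were 6744 of 26135 for acute Poly(I:C), and 1762 of 24396 and 6566 of 25537 for the steps. For the re-stimulated groups they were 6461 of 25802, 6656 of 25851, 6240 of 25543 and 7698 of 26086.

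Leaving out 1 array at a time, with at least 2 kept a group, gave 1 to 5 for acute LPS and 0 to 4 for acute CpG. Over all probes, calls were 4038 of 28861 to 10963 of 28964 and 108 of 27750 to 2881 of 26001. Acute Pam3CSK4 and Poly(I:C) each gave 0 to 2, beside 0 to 584 of 26055 and 183 of 28164 to 2909 of 26977. The steps to re-stimulation gave 4 to 6 for LPS (6654 of 26769 to 11013 of 26719 probes). They gave 0 to 2 for CpG (43 of 25354 to 2037 of 25401), 0 for Pam3CSK4 (0 probes) and 0 to 2 for Poly(I:C) (0 to 3267 of 26720). Against naïve, re-stimulated LPS gave 0 to 7 (133 of 26041 to 6461 of 25802) and CpG 1 to 6 (704 of 27944 to 7030 of 26427). Pam3CSK4 gave 0 to 5 (18 of 27762 to 4205 of 25999) and Poly(I:C) 0 to 4 (360 of 28063 to 4282 of 26687). The F tests gave 0 to 1 and 0 to 2.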
